A study of Homo sapiens and Mus musculus with 36 samples.

Results

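Which RNAs separated 2 kinds of untreated HuH-7 library was examined in 5 of the 36 libraries of the series. HuH-7 is an established human hepatocellular carcinoma line. The libraries were grouped by their labels, and they were chosen with earlier results of these data known. Of them, 2 carried the control guide sgNeg2 and received no interferon (IFN), and 3 received the vehicle DMSO. Both groups are labelled WT in genotype. The compared symbols were the 15899 that the files of both kinds list, out of 26457 in the guide files. Every symbol in the DMSO files had at least 1 count in each DMSO library, so an RNA at 0 in any of them may be missing from that list.

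All HuH-7 libraries are described with the same RNA isolation kit and the same library kit, the VAHTS Universal V6 RNA-seq kit, from total RNA. No label names a poly(A) selection or a ribosomal RNA depletion step. The guide libraries held 22145025 and 22649969 counts, and the DMSO libraries 53406907, 48912627 and 58628528. Guide or vehicle, the kind of file, the depth and any unlabelled difference in preparation changed together here, so these cannot be told apart. No label says that replicates came from separate cultures, so each p-value refers to the spread among these libraries alone. In a pooled culture, fewer cells of a type and less RNA per cell also cannot be told apart.

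The second pair of groups used below shares no library with the first. It set 4 libraries labelled DOT1L_KO, with 2 of each of the guides sg1 and sg2 and no IFN, against 3 libraries treated with EPZ-5676, an inhibitor of DOT1L, for 7 days. DOT1L is the methyltransferase of lysine 79 of histone H3. Either a DOT1L guide or the inhibitor is thus on each side of that pair. Levels in the 2 sgNeg2 libraries with IFN, whose IFN type no label gives, are set beside both.

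Most messenger RNAs end in a poly(A) tail, which is added after the signal AATAAA or a close relative of it. Several abundant RNAs do not. Replication-dependent histone messengers end at a stem-loop that SLBP binds, and spliceosomal, nucleolar and Cajal body RNAs end by trimming or by cleavage with the Integrator complex. RNAs made by RNA polymerase III, such as the 7SK RNA that holds the elongation factor P-TEFb, end in a run of U. MALAT1 and the long form of NEAT1 end by RNase P cleavage in place of a tail.

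The ends of representative transcripts are shown to make that distinction visible. They come from the GENCODE release 29 transcripts on GRCh38, written as DNA from 5′ to 3′. First stand the last 30 bases of 4 tailed RNAs and of the long NEAT1 form. Capitals mark AATAAA in the first 4 and the terminal 6 bases in NEAT1.
H2AFZ (chr4:99948088-99948117, minus strand): ggataagttcAATAAAggtcatatcccaaa
H3F3B (chr17:75776434-75776463, minus strand): atgagactaaAATAAAatttttgaagttaa
RPL3 (chr22:39312884-39312913, minus strand): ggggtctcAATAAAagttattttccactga
TUG1 (chr22:30979366-30979395, plus strand): tattttaAATAAAgaatttttaaaattaaa
NEAT1 (chr11:65445511-65445540, plus strand): ctgtgaaagagtgagcaggaaaaaGCAAAA

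Stem-loop sites of 3 cluster histone genes and of H2AFX follow, 30 bases each, with the histone stem-loop in capitals. HIST1H2AE and HIST1H2AI have transcripts that end soon after the site, while HIST1H4E and H2AFX also have annotated transcripts that continue for over 1000 bases.
HIST1H2AE (chr6:26217410-26217439, plus strand): aaccaaaGGCTCTTTTCAGAGCCacccacc
HIST1H2AI (chr6:27808640-27808669, plus strand): aaccaaaGGCTCTTTTCAGAGCCacctaca
HIST1H4E (chr6:26204994-26205023, plus strand): aatcaaaGGCCCTTTTCAGGGCCgcccaca
H2AFX (chr11:119094891-119094920, minus strand): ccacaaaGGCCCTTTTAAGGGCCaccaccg

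Small RNAs with large differences are shown last. Capitals mark the final 10 bases of RN7SK (its last 100 bases are given), the Sm-type site ATTTTTG of RNU2-2P, the ACA box of SNORA12, and boxes C and D of SNORD12B. The marked RN7SK bases hold a short run of T but do not close on it.
RN7SK (chr6:52995849-52995948, plus strand): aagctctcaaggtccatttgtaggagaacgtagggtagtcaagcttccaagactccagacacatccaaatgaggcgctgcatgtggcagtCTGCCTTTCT
RNU2-2P (chr11:62841619-62841809, minus strand): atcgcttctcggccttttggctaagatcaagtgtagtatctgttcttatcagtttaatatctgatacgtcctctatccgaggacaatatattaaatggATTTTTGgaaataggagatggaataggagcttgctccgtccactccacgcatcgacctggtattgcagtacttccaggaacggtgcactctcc
SNORA12 (chr10:100237156-100237302, minus strand): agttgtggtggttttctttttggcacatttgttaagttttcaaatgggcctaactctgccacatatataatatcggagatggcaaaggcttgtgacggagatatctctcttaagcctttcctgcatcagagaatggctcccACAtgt
SNORD12B (chr20:49280319-49280409, plus strand): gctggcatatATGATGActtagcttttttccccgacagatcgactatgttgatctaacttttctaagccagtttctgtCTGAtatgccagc

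AATAAA stood in the last 50 bases, on the transcript strand, of 60.8% of the 14827 shared symbols with a transcript sequence. It stood there in 63.6% of messengers, in 1.85% of 162 small nucleolar and Cajal body RNAs, and in none of 7 small structural RNAs. Among cluster histone transcripts 13 of 41 (31.7%) held it, as did 7 of 25 nuclear long noncoding RNAs. The histone stem-loop, searched on the transcript strand, was found in 17 of 41 cluster histone transcripts, in 11 of 13394 messengers outside the clusters, and in 28 shared symbols in all (0.189%). Of the 41 cluster histone models, 19 run only from start codon to stop codon, so their ends are not in the sequence searched.

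The 3 RNAs chosen as markers were all far higher in sgNeg2 libraries. They were chosen with earlier results of these data known, so their direction is not a separate result. RN7SK, the 7SK RNA on chromosome 6 (52995621 to 52995948, plus strand), had 12528 and 13497 CPM (counts scaled to library size) in the sgNeg2 libraries. In the DMSO libraries it had 0.388, 0.211 and 0.422 CPM, which rest on 20, 10 and 24 counts. The groups lay far apart, with a log2 difference of 15.19 (SE 0.10, adjusted p = 4.12e-07, edgeR quasi-likelihood test with Benjamini-Hochberg adjustment over 15225 genes, as in all adjusted p-values below). Here and below, SE is the log2 difference divided by the square root of the F value of that test. It was not estimated from the counts directly and is too small where a group rests on few counts, as for RN7SK in DMSO.

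MALAT1, a nuclear speckle RNA on chromosome 11, had 5430 and 5782 CPM with sgNeg2 and 84.8, 79.2 and 82.2 CPM with DMSO. Its log2 difference was 6.09 (SE 0.04, adjusted p = 1.58e-09). KCNQ1OT1, the imprinted antisense RNA of the KCNQ1 locus, is unspliced and 91667 bases long in the annotation. It had 888 and 898 CPM with sgNeg2 against 13.8, 11.6 and 11.8 CPM with DMSO (log2 difference 6.17, SE 0.06, adjusted p = 2.7e-09). Neither RNA overlapped between groups, and the counting strand is not stated, so reads of KCNQ1 introns in KCNQ1OT1 cannot be told apart from its own.

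**Figure D1:**
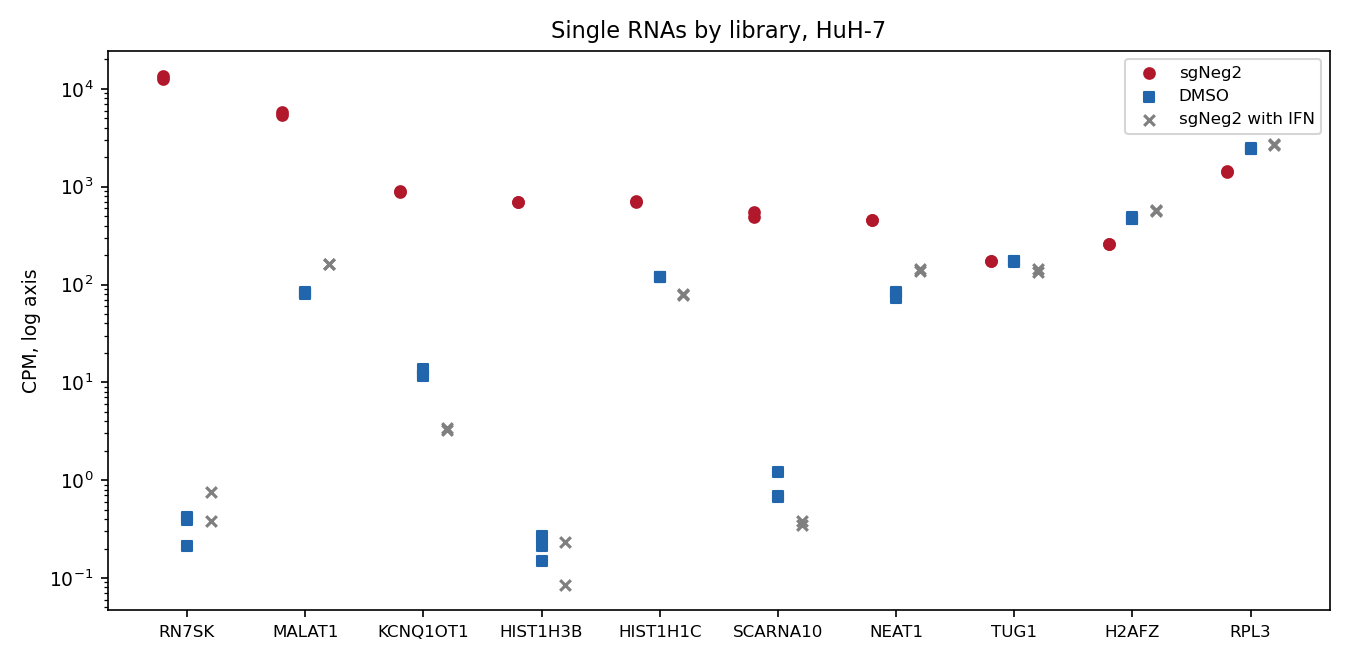
CPM (log axis) of 10 RNAs in each sgNeg2, DMSO and IFN-treated sgNeg2 library, 1 point per library. RN7SK is above 12000 CPM in both sgNeg2 libraries and below 1 CPM in the others, while TUG1 stands between 135 and 176 CPM in all of them.

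Counts of class members must be read against a broad difference. Of 15225 genes tested, 5162 (33.9%) were higher and 5557 (36.5%) lower in sgNeg2 libraries (70.4% together), and the libraries of the groups did not overlap for 80.2%. A difference of at least 2-fold in a called gene was rarer, 12.8% of genes for higher and 4.29% for lower. The median log2 difference of all genes tested was 0.00. In the second pair of groups, 14756 genes were tested, with 34.7% higher in edited libraries and 36.3% lower (71.0% together). There 13.6% were higher and 3.77% lower by at least 2-fold in a called gene, and the groups did not overlap for 71.3%. Library profiles correlated at r = 0.991 within sgNeg2, at 0.992 to 0.993 within DMSO and at 0.932 to 0.934 between them, on the log2 CPM scale across genes, which are not independent replicates.

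Replication-dependent histone genes of the clusters were higher in sgNeg2 libraries without exception among those listed. All 41 listed genes were tested and all 41 were higher by at least 2-fold, with a median log2 difference of 7.67 and a range of 1.14 to 12.42. Of the 41, 10 reached the limit of the low-count filter only in the sgNeg2 libraries and so had to differ. Over the other 31, 31 were higher and the median was 7.31. The share of counts on these genes was 0.805% and 0.797% in the sgNeg2 libraries and 0.0344%, 0.0338% and 0.0335% in the DMSO libraries, a 23.6-fold ratio of means.

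HIST1H3B, which encodes a canonical histone H3, had 696 and 705 CPM with sgNeg2. With DMSO it had 0.271, 0.147 and 0.211 CPM (log2 difference 11.67, SE 0.05, adjusted p = 2.69e-40). The linker histone gene HIST1H1B had 464 and 484 CPM against 0.0581, 0.168 and 0.0352 CPM, a log2 difference of 12.42 (SE 0.08, adjusted p = 9.79e-22). Its DMSO values rest on 3, 8 and 2 counts, for which that SE is too small. HIST1H1B passed the low-count filter only through sgNeg2, which fixed its direction. HIST1H4D and HIST1H4E, which encode histone H4, differed by 10.67 and 9.96 on the log2 scale. The stem-loop genes printed above, HIST1H2AE and HIST1H2AI, differed by 7.04 and 6.91. Near-identical copies within the clusters share reads, so single histone genes are uncertain to that extent.

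The 7 cluster genes listed for known poly(A) transcripts had a median of 4.33 against 8.34 in the other 34 cluster genes, or 7.63 over the 24 of those that passed the low-count filter within DMSO. The lists overlapped in size of difference, since HIST2H2BC, outside the 7, differed by 2.44. HIST1H2BK, an H2B gene, had 364 and 395 CPM with sgNeg2 and 177, 171 and 169 CPM with DMSO, a log2 difference of 1.14 (SE 0.03, adjusted p = 1.38e-17). The linker histone gene HIST1H1C had 699 and 708 CPM against 120.5, 121 and 118 CPM (log2 difference 2.55, SE 0.02, adjusted p = 1.7e-33). HIST1H2BC, on the same list, differed by 7.48. The 7 genes held 0.226% and 0.233% of sgNeg2 counts, and 0.0324%, 0.0316% and 0.0314% of DMSO counts. The other 34 held 0.579% and 0.565% of sgNeg2 counts, and 0.00195%, 0.00222% and 0.00216% of DMSO counts. In DMSO libraries nearly all cluster histone counts thus lay on those 7 genes.

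Replacement histone genes, which are expressed outside S phase from tailed messengers, did not share the difference. Of 11 tested, 1 was higher, 8 were lower and the median was -0.39. H2AFZ, which encodes H2A.Z, had 259 and 259 CPM with sgNeg2 and 486, 472 and 469 CPM with DMSO (log2 difference -0.88, SE 0.02, adjusted p = 1.61e-22). H3F3B, an H3.3 gene, had 302 and 306 CPM against 526, 516 and 501 CPM (log2 difference -0.76, SE 0.02, adjusted p = 5.21e-21). H2AFX, whose annotated transcript holds the stem-loop, was the single gene higher, at 103 and 90.1 CPM against 68.0, 73.4 and 71.2 CPM. Its log2 difference was 0.44 (SE 0.05, adjusted p = 4.76e-08). In the second pair of groups it differed by 0.20 (SE 0.27, adjusted p = 0.545), and in a joint fit of all 4 groups the first difference was not called (0.43, adjusted p = 0.194). Of the other stem-loop messengers outside the clusters, ENO2 (-0.86), EIF3I (-0.68), SYNCRIP (-0.54) and BTBD10 (-0.19) were called lower. EPB41L1 (0.36) was called higher, while CHMP4C, NHLRC3, NRK, RSF1 and WDR33 were not called.

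Genes for the machinery of histone messenger processing were mostly lower, by less than 2-fold. Of 14 tested, 2 were higher (14.3%) and 10 were lower (71.4%), against 33.9% and 36.5% over all genes. None differed by 2-fold or more in a called gene, which few genes did over all. SLBP, the stem-loop binding protein, had 74.6 and 73.5 CPM with sgNeg2 and 120.3, 111 and 116 CPM with DMSO (log2 difference -0.65, SE 0.04, adjusted p = 6.28e-14). NPAT, the coactivator of histone transcription, had 52.2 and 53.1 CPM against 33.2, 33.1 and 33.6 CPM (log2 difference 0.66, SE 0.05, adjusted p = 5.64e-12). Its longest transcript counts among the long messengers. Of 20 genes listed for the decay of nuclear RNA, 2 were higher and 11 lower, with a median of -0.19.

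Small structural RNAs separated the libraries most by share of counts. The 7 listed members held 5.02% and 5.58% of sgNeg2 counts and 0.00292%, 0.0022% and 0.00163% of DMSO counts. Of the 7, 6 were higher and 1, BCYRN1, was not called. Their median log2 difference was 10.73, also over the 5 that passed the low-count filter within DMSO.

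RPPH1, the RNA of RNase P, had 3567 and 3693 CPM with sgNeg2 and 0.116, 0.0842 and 0.0528 CPM with DMSO. Its log2 difference of 15.36 (SE 0.04, adjusted p = 2.48e-44) rests on 6, 4 and 3 DMSO counts, for which that SE is too small. RPPH1 passed the low-count filter only through sgNeg2, so its direction was fixed by the filter. RMRP, the RNA of RNase MRP, had 9593 and 12299 CPM against 0.581, 0.674 and 0.668 CPM (log2 difference 14.05, SE 0.25, adjusted p = 1.98e-05). TERC, the telomerase template RNA, differed by 10.31.

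RN7SL1, an RNA of the signal recognition particle, had 12507 and 12780 CPM with sgNeg2 and 8.85, 7.77 and 5.93 CPM with DMSO (log2 difference 10.73, SE 0.13, adjusted p = 6.1e-06). RN7SL2 is nearly identical to it and differed by 9.64, so the split between them is uncertain. BCYRN1, a neuronal polymerase III RNA with an internal A-rich stretch, had 0.432 and 0.726 CPM against 3.26, 0.674 and 0.264 CPM. These groups overlapped (log2 difference -1.26, SE 1.56, adjusted p = 0.529).

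Spliceosomal RNAs were nearly absent from the shared list. Of 37 symbols in the guide files, 3 were listed for both kinds and 2 were tested. RNVU1-14, a U1 variant, had 2.07 and 2.86 CPM with sgNeg2 and 0.136, 0.105 and 0.141 CPM with DMSO (log2 difference 4.24, SE 0.42, adjusted p = 7.92e-10). The other, RNU86, is an older symbol of a nucleolar RNA and differed by 1.53. RNU2-2P, a U2 gene whose symbol the list's pattern missed and which was added after its values were seen, had 169.9 and 209 CPM against 0.271, 0.0842 and 0.0528 CPM. Its log2 difference was 10.42 (SE 0.29, adjusted p = 5.52e-05), on 14, 4 and 3 DMSO counts. RNVU1-14 and RNU2-2P passed the low-count filter only through sgNeg2, so their direction was fixed by the filter.

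The 34 spliceosomal symbols listed only in guide files held 4660 and 4343 counts in the sgNeg2 libraries. At least 10 counts in both libraries were seen for 16 of them. RNU4-1, a U4 RNA, had 1423 and 1329 counts there, and RNU12, the minor spliceosome's U12 RNA, had 419 and 382. In the 2 sgNeg2 libraries with IFN all 34 together held 8 and 18 counts. Their levels in DMSO libraries were not analysed here.

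Small nucleolar and Cajal body RNAs, which guide modification of ribosomal and spliceosomal RNA, were higher in most cases. Of 183 listed, 179 were tested: 135 were higher, 4 lower and 124 higher by at least 2-fold, with a median log2 difference of 1.71. Passing the filter only through sgNeg2 was the case for 44. Among the 133 that passed within DMSO, 93 were higher and 4 lower, with a median of 1.40. They held 0.201% and 0.244% of sgNeg2 counts and 0.0157%, 0.0154% and 0.0153% of DMSO counts, a 14.4-fold ratio.

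Within the class the Cajal body RNAs had the highest median. It was 4.66 for the 10 tested SCARNA genes, 2.16 for the 65 SNORA genes (H/ACA box) and 1.40 for the 104 SNORD genes (C/D box). Over those that passed the filter within DMSO it was 4.63 for 5 SCARNA genes, of which 3 were called higher, 1.64 for 48 SNORA genes and 1.09 for 80 SNORD genes. SCARNA10 had 487 and 558 CPM with sgNeg2 and 1.20, 0.674 and 0.686 CPM with DMSO (log2 difference 9.25, SE 0.17, adjusted p = 2.02e-05). SNORA12 had 28.8 and 36.5 CPM against 0.0969, 0.316 and 0.141 CPM (log2 difference 7.48, SE 0.22, adjusted p = 2.57e-13). It passed the low-count filter only through sgNeg2, which fixed its direction. SNORD3A, a U3 RNA with near-identical copies, differed by 10.71 (SE 0.39, adjusted p = 0.000163). Its sgNeg2 libraries were 347 and 499.8 CPM.

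Medians were lower for shorter members. The median was 1.29 for the 64 tested RNAs under 90 bases, 1.74 for 70 of 90 to 140 bases, 4.04 for 13 of 140 to 200 bases and 5.93 for 11 of 200 bases or more. Over those that passed the filter within DMSO the medians were 1.01 for 50, 1.44 for 49, 2.42 for 8 and 5.93 for 9 RNAs, in the same order. SNORD12B, of 91 bases, had 4.92 and 5.51 CPM with sgNeg2 and 0.0775, 0.211 and 0.141 CPM with DMSO (log2 difference 5.17, SE 0.34, adjusted p = 1.72e-13). It had the largest difference among the C/D box RNAs under 100 bases in which both boxes were found. SNORD12B, too, passed the low-count filter only through sgNeg2, which fixed its direction. SNORD80 went the other way, with 3.80 and 3.93 CPM against 9.42, 8.27 and 8.30 CPM (log2 difference -1.16, SE 0.14, adjusted p = 5.81e-08).

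Most of these RNAs lie inside introns of other genes, so the host gene gives a comparison within the same libraries. By GENCODE coordinates, 140 tested RNAs lay within exactly 1 tested gene of the same strand, 79 host genes in all. The RNA had a larger difference than its host in 136 of 140 cases. Median log2 differences were 1.67 for the RNAs and -0.41 for the hosts. Of these RNAs, 101 passed the low-count filter within DMSO, and 97 of the 101 had a larger difference than their host, with medians of 1.39 and -0.52. SCARNA10 lies in NCAPD2, which differed by -0.16, and SNORA12 in CWF19L1, which differed by -0.33. Among 23 noncoding host genes named for that role, 9 were higher and 9 lower, with a median of -0.06. SNHG16 had 427 and 440.0 CPM with sgNeg2 and 242, 229 and 237 CPM with DMSO (log2 difference 0.88). GAS5, another such host, had 84.1 and 82.2 CPM against 92.2, 92.4 and 92.2 CPM (log2 difference -0.15), a call lost when genes under 5 CPM were left out (-0.04, adjusted p = 0.322). Reads of unspliced host RNA that lie inside the intron can count toward these RNAs and not toward the exons of the host. The comparison therefore cannot tell the small RNA apart from unspliced host RNA. No label or note says how counting was done.

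**Figure D2:**
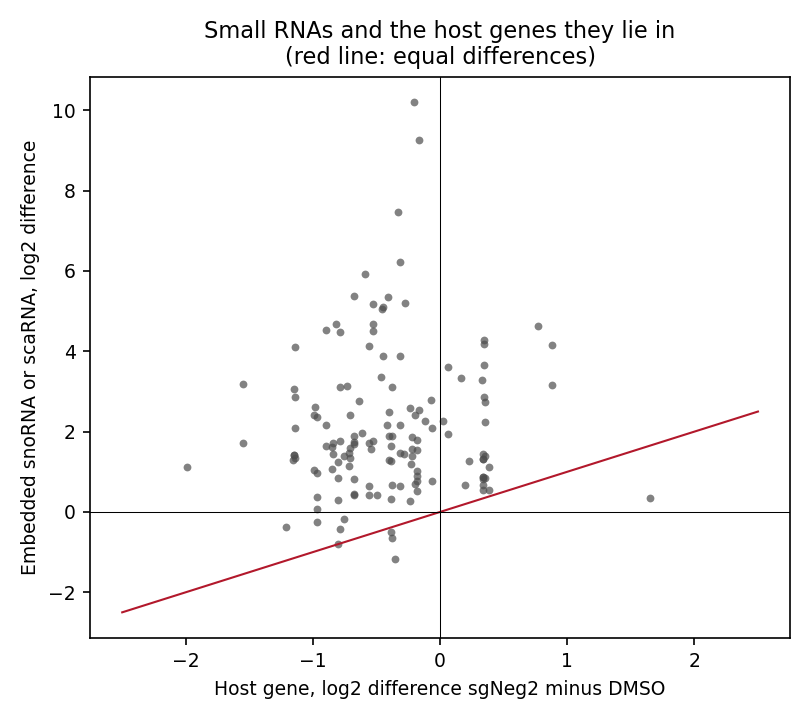
The log2 difference (sgNeg2 minus DMSO) of 140 small nucleolar and Cajal body RNAs against that of the gene each lies in, 1 point per RNA, with a red line where both are equal. For 136 of 140 the point lies above the line.

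Listed nuclear long noncoding RNAs were more often higher than listed cytoplasmic ones, with exceptions in both lists. Of 26 nuclear ones tested, 18 were higher, 4 lower and 13 higher by at least 2-fold, with a median of 1.05 (0.95 over the 25 that passed the filter within DMSO). Of 13 cytoplasmic ones, 3 were higher and 7 lower, with a median of -0.18. The ranges overlapped, at -3.35 to 6.17 for nuclear and -1.81 to 3.09 for cytoplasmic members. Among called nuclear members that were lower, MIRLET7DHG differed most. Nuclear members held 0.755% and 0.784% of sgNeg2 counts and 0.0481%, 0.0464% and 0.048% of DMSO counts.

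NEAT1, the scaffold of paraspeckles, has a short tailed form and a long form without a tail. It had 455 and 452 CPM with sgNeg2 and 83.8, 72.9 and 81.3 CPM with DMSO (log2 difference 2.51, SE 0.06, adjusted p = 5.36e-07). TTN-AS1, which lies antisense to TTN, had 39.5 and 40.3 CPM against 2.07, 2.84 and 1.55 CPM (log2 difference 4.23). MIR17HG, the primary transcript of the miR-17 cluster, had 12 and 12.9 CPM against 0.775, 1.16 and 1.16 CPM (log2 difference 3.58). TUG1, a tailed RNA found in nucleus and cytoplasm, had 176 and 174 CPM against 173, 168 and 173 CPM. Its groups did not overlap, but the log2 difference of 0.03 (SE 0.03, adjusted p = 0.367) was not called. It was called with scaling factors from protein-coding genes (0.09, adjusted p = 0.0074) and without genes under 5 CPM (0.14, adjusted p = 9.2e-05). MIR210HG was lower, with 3.76 and 4.74 CPM against 8.85, 8.97 and 8.51 CPM (log2 difference -1.05).

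In broader noncoding groups, not sorted by where the RNAs reside, more genes were higher than lower as well. These groups share members with the lists above, such as MIR17HG (nuclear and microRNA) and LINC00657 (cytoplasmic and LINC), so they are not separate sets. Of 442 antisense genes tested, 239 were higher and 42 lower, with a median of 0.82 (0.68 over the 379 that passed the low-count filter within DMSO). Of 204 genes with LINC symbols, 115 were higher and 15 lower, with a median of 0.87 (0.80 over 180). Among 74 microRNA gene symbols, 45 were higher and 7 lower, with a median of 1.42, but 27 of the 74 passed the filter only through sgNeg2. Over the 43 that passed within DMSO, 23 were higher and 7 lower, with a median of 0.78. The gene of MIR21, which lies in VMP1, had 4.53 and 4.36 CPM against 0.0387, 0.0842 and 0.0528 CPM (log2 difference 6.19, SE 0.40, adjusted p = 9.55e-14). MIR21 passed the low-count filter only through sgNeg2, so its direction was fixed by the filter. The host VMP1 differed by 0.72. Reads of antisense genes and of their partners cannot be told apart without strand.

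Of 4 ribosomal RNA symbols tested, 3 were higher by at least 2-fold and none was lower, with a median of 7.47 (4.32 over the 3 that passed the filter within DMSO). They held 0.545% and 0.452% of sgNeg2 counts and 0.00377%, 0.0034% and 0.00443% of DMSO counts. The precursor RNA45S5 had 4945 and 4116 CPM with sgNeg2 and 0.446, 0.316 and 0.475 CPM with DMSO (log2 difference 13.40, SE 0.20, adjusted p = 1.11e-05). RNA28S5 and RNA5-8S5, of the large subunit, differed by 4.32 and 10.62. RNA18S5, the small subunit RNA, had 30.05 and 13.4 CPM against 30.8, 29.7 and 41.0 CPM and was not called (log2 difference -0.65, SE 0.44, adjusted p = 0.281). These genes have many copies, so a level depends on how repeated reads were handled, and none of the labels or notes says how.

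**Figure D3:**
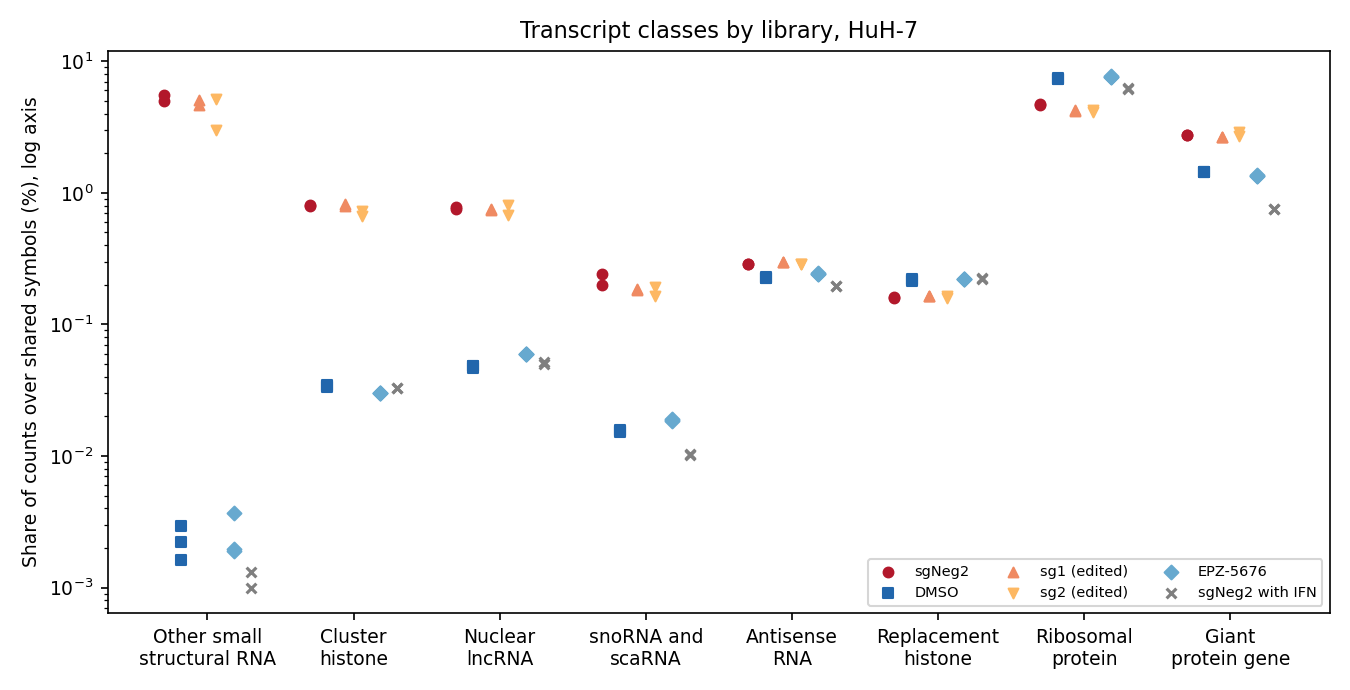
Share of counts over shared symbols (%, log axis) of 8 transcript classes, 1 point per library, in 6 groups of HuH-7 libraries. Small structural RNAs hold 3.02% to 5.58% in the sgNeg2 and edited libraries without IFN and at most 0.00367% in the DMSO, EPZ-5676 and IFN-treated sgNeg2 libraries.

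Messenger classes differed less, and by length. Messengers with a representative transcript under 1000 bases had a median log2 difference of -0.47. Of 430 tested, 69 were higher and 245 lower. Those over 6000 bases had a median of 0.29, with 1413 of 2348 higher and 438 lower. The median went from -0.48 at 700 to 1000 bases through -0.19 at 2000 to 3000 bases and 0.00 at 4000 to 6000 bases to 0.73 above 12000 bases. It was -0.34 in the shortest group, under 700 bases. Across 12937 messengers, Spearman's rho was 0.309 with transcript length and 0.044 with GC content, a description across genes of the same libraries.

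The order by length held at each level of GC content. Below 45% GC the medians were -0.64 for short and 0.24 for long messengers. From 45% to 52% they were -0.62 and 0.37, and above 52% they were -0.33 and 0.33. Short messengers held 2.72% and 2.78% of sgNeg2 counts and 4.31%, 4.30% and 4.25% of DMSO counts. Long messengers held 25.3% and 25.1% of sgNeg2 counts and 20.0% of the counts in each DMSO library.

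**Figure D4:**
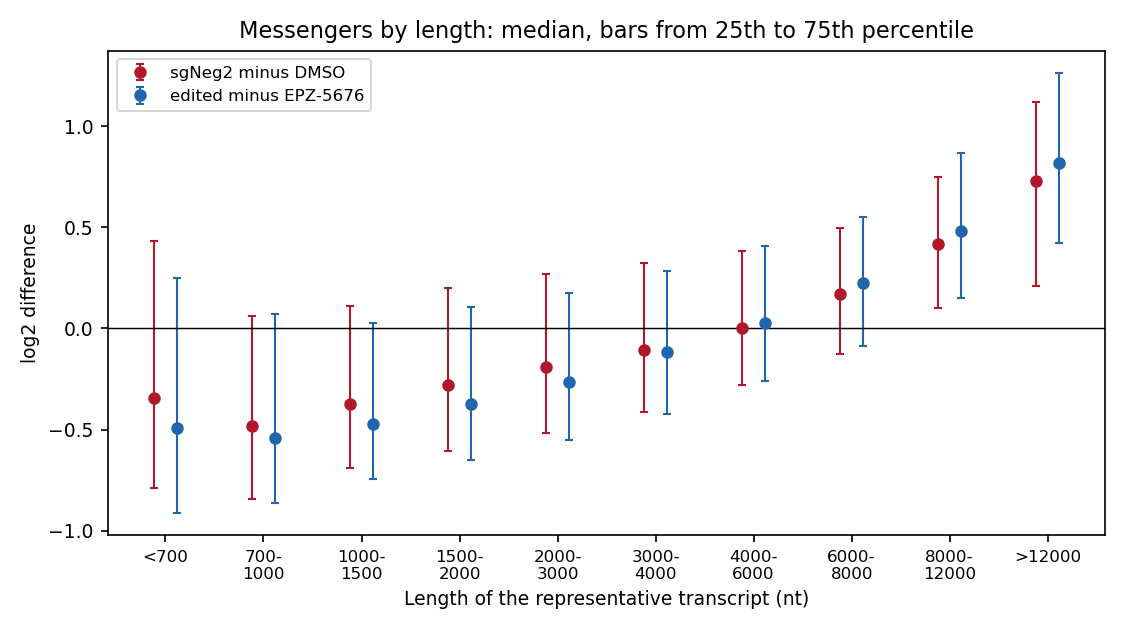
Median log2 difference of messengers in 10 groups of transcript length (nt), with bars from the 25th to the 75th percentile over genes, for sgNeg2 minus DMSO and for edited minus EPZ-5676. The medians go from -0.48 at 700 to 1000 nt to 0.73 above 12000 nt in the first comparison and from -0.54 to 0.82 in the second.

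Cytosolic ribosomal protein genes, which have short and abundant messengers, were mostly lower. Of 77 tested, 6 were higher and 67 lower, with a median of -0.72, and they held 4.62% and 4.74% of sgNeg2 counts and 7.41%, 7.38% and 7.33% of DMSO counts. RPL4 had 1719 and 1731 CPM with sgNeg2 and 3056, 3006 and 2991 CPM with DMSO (log2 difference -0.81, SE 0.02, adjusted p = 5.82e-25). RPS2 had 726 and 721 CPM against 2118, 2076 and 2156 CPM (log2 difference -1.55). RPS21 was higher, at 382 and 406 CPM against 263, 257 and 246 CPM (log2 difference 0.63). Of 79 nuclear genes of oxidative phosphorylation 4 were higher and 62 lower, with a median of -0.64. NDUFC2, a complex I subunit, was an exception at 147 and 159 CPM against 23.9, 24.7 and 25 CPM (log2 difference 2.64), and a readthrough gene overlaps it, so its level is uncertain.

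Genes of very large proteins were higher. Of 53 tested, 51 were higher, none was lower and 19 were higher by at least 2-fold, with a median of 0.84. The exceptions, CENPE and CENPF, kinetochore proteins, were not called, at -0.05 and 0.02. APOB, the structural protein of very low density lipoprotein, had 9230 and 9314 CPM with sgNeg2 and 5302, 5255 and 5297 CPM with DMSO (log2 difference 0.81, SE 0.01, adjusted p = 2.8e-26). VPS13C, a lipid transfer protein, had 368 and 372 CPM against 115, 122 and 118 CPM (log2 difference 1.65). KMT2C, a histone H3 lysine 4 methyltransferase, differed by 1.58.

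Length did not order every messenger. TF, the transferrin gene, counts as long by its longest transcript and had 2197 and 2188 CPM against 4439, 4417 and 4439 CPM (log2 difference -1.02). EMC6, a short messenger of the endoplasmic reticulum membrane complex, had 25 and 21.6 CPM against 1.74, 1.56 and 1.11 CPM (log2 difference 3.99). CFAP126, also short, had 0.0432 and 0.128 CPM against 14.1, 15.7 and 14.6 CPM (log2 difference -7.38). SLC18A2, the vesicular monoamine transporter, had 0.130 CPM and 0 against 22.3, 21.2 and 21.4 CPM. CFAP126 and SLC18A2 passed the low-count filter only through DMSO, so their direction was fixed by the filter.

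**Figure D5:**
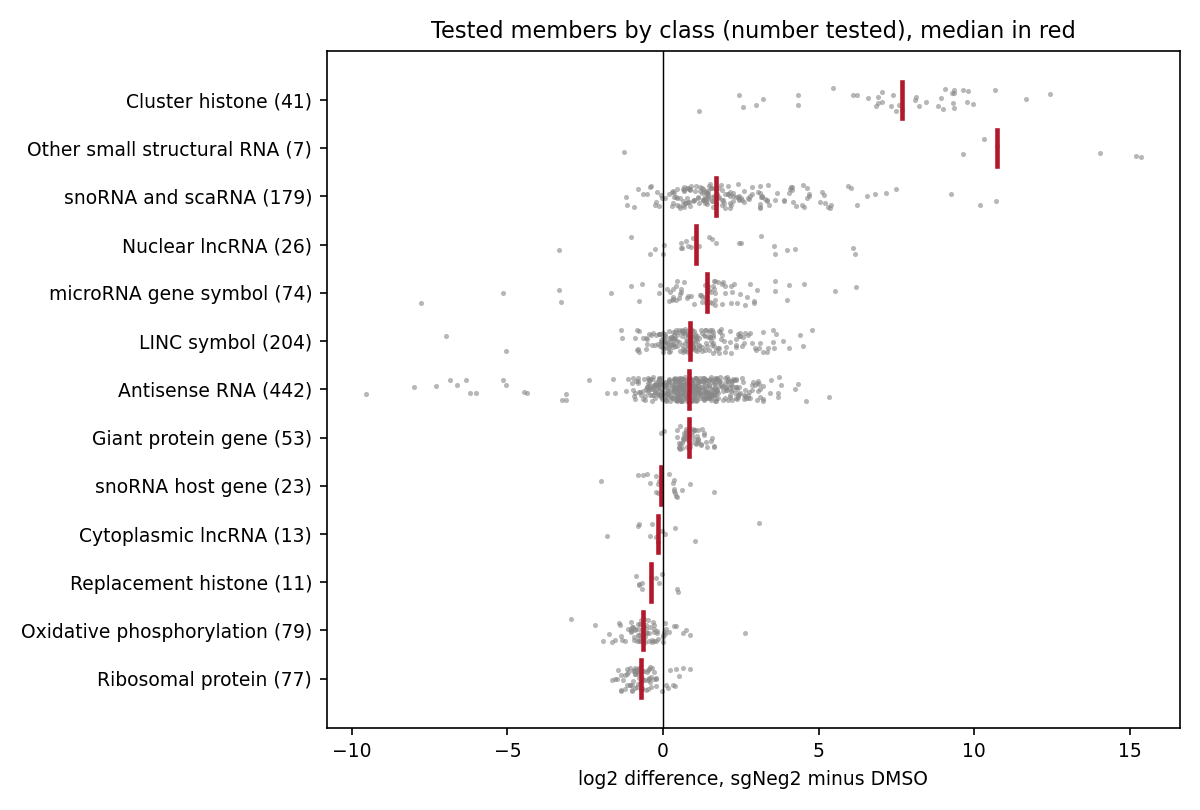
The log2 difference (sgNeg2 minus DMSO) of every tested member of 13 classes, 1 grey point per gene, with the class median in red. Medians run from 10.73 in small structural RNAs and 7.67 in cluster histones to -0.72 in ribosomal protein genes.

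The second pair of groups gave values in the same direction. It too set guide files against files of the other kind, with fewer counts in the edited libraries, so it repeats those differences. Members that passed the low-count filter only through the edited libraries were not set apart for this pair. Edited libraries against EPZ-5676 libraries had 41 of 41 cluster histone genes higher (median 7.73), 6 of 7 small structural RNAs (median 10.27) and 127 of 167 nucleolar and Cajal body RNAs (median 1.5). Nuclear long noncoding RNAs had 19 of 26 higher (median 1.00), and ribosomal protein genes 69 of 77 lower (median -0.91). The 53 giant protein genes were all higher (median 0.95). RN7SK differed by 15.37 (SE 0.32, adjusted p = 5.83e-09) and KCNQ1OT1 by 6.20. Over 14756 genes tested there, 5116 were higher and 5357 lower. The guide sg2 library of replicate 2 stood apart from the other edited libraries, with RN7SK at 8181 CPM against 11609 to 12468 CPM, and without it 5534 genes were higher and 5801 lower. The size of the difference itself differed between the 2 pairs of groups for 1275 of 15446 genes tested (8.25%).

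The IFN-treated libraries of the same control guide stood with DMSO in these classes. Their files are guide files too, with 47594968 and 52095223 counts. The part of guide, kind of file, depth or IFN was not tested in these libraries. Cluster histones held 0.0328% and 0.0327% of their counts, small structural RNAs 0.00131% and 0.001%, nucleolar and Cajal body RNAs 0.0102% and 0.0103%, and nuclear long noncoding RNAs 0.0496% and 0.0516%. RN7SK stood there at 0.750 and 0.384 CPM. Giant protein genes did not follow that order, at 0.758% in each IFN-treated library against 1.43% to 1.44% in DMSO and 2.74% to 2.75% in untreated sgNeg2 libraries. The share of every class named above separated sgNeg2 from DMSO without overlap. With 2 libraries against 3, the exact two-sided permutation test gave p = 0.1, the smallest it allows, and cannot pass 0.05.

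Markers of cell identity were present in both kinds. All 13 hepatocyte markers were listed and tested, with 2 higher and 11 lower, and together held 1.75% to 1.76% of sgNeg2 counts and 1.76% to 1.78% of DMSO counts. Their median log2 difference was -0.71. Without APOB, which is also a giant protein gene, the other 12 held 0.792% and 0.781% of sgNeg2 counts and 1.25% to 1.26% of DMSO counts. ALB, serum albumin, had 2989 and 3012 CPM against 4986, 4890 and 4888 CPM. Of 9 leukocyte and red cell markers 6 were listed, holding 0.0103% and 0.0106% of sgNeg2 counts against 0.0152% to 0.0157% of DMSO counts, mostly on LYZ and CD68, while PTPRC, HBA1 and HBB were not in the shared list. Of 7 fibroblast and endothelial markers 5 were listed, with 0.0012% and 0.00151% against 0.00064% to 0.00087%. The part of other cell types in the class differences was not tested.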

How the data were processed

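RNA was sequenced from 36 libraries, and 18 HuH-7 libraries were read for this report. The authors deposited 1 table of counts per library, by gene symbol, with no normalization. Per the submitters' processing notes the tools were Trim Galore, HISAT2 2.2.1, SAMtools 1.9 and DESeq2 1.36.0, with the hg38 and mm10 builds. The counter, its strand setting and its handling of repeated reads were not found in the labels, notes or headers.

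Counts over the 15899 shared symbols were fitted in R 4.3.3 with the quasi-likelihood test of edgeR 4.0.16, TMM factors and the filterByExpr filter (minimum count 10), using only the groups compared. Calls were made below an adjusted p of 0.05 (Benjamini-Hochberg over all genes tested). Shown levels are CPM scaled by TMM factors over the 18 libraries. Shares are of unscaled counts. Lengths, coordinates and sequences come from GENCODE 29, where 14828 shared symbols matched. The longest basic protein-coding transcript represented a gene, and 13395 messengers outside the histone clusters had a length.

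The libraries, class lists and markers were chosen with earlier results of these data known. Named genes were the 3 markers, in each class the 4 with the highest mean CPM, the 4 called genes with the largest non-overlapping difference at a mean of at least 1 CPM and up to 2 called against their class, and over all genes the 8 largest each way at a mean of at least 5 CPM. The text gives those that describe a class, and others where it says so or to illustrate a printed sequence, a host gene or a list. No 2 libraries agreed within sampling noise (chi-square per degree of freedom of 4.09 to 5.57 between replicates). Same-numbered sgNeg2 and DMSO libraries did not deviate together (r = 0.014 and -0.002).

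Counts were simulated for 15225 genes with the libraries' own depth and trended spread. In them 200 genes of at least 1 CPM were changed, equally up and down. The sgNeg2 fit recovered 88% of 2-fold and 100% of 4-fold changes, with 3.09% of calls false. For the second pair, on 14756 genes, these values were 92%, 100% and 5.88%. In the data far more genes were called, unevenly by direction at 2-fold, and some differed far more. The share of false calls therefore does not carry over to them. Alternatives covered scaling, test, filters, left-out replicates, a joint fit, a replicate block, the call rule, length limits and denominators.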

Additional observations from a re-analysis of the deposited data

Results flagged for a closer look

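Among the genes named by the rule, of which 157 were tested in the main fit, 21 had a log2 difference between sgNeg2 and DMSO that differed from that between edited and EPZ-5676 libraries. This was by an interaction test in the joint fit (edgeR quasi-likelihood, adjusted p below 0.05 over 15446 genes). Over all genes it held for 1275 of 15446 (8.25%). The named genes were picked by level or by the first difference, so the 2 shares are not alike. Each value here is the first difference minus the second, on the log2 scale. Larger in the first pair were the nuclear RNAs MALAT1, by 0.72, and NEAT1, by 0.72. The known poly(A) histone gene HIST1H2BK stood at -0.25. Of ribosomal protein genes, RPL15 stood at 0.29, RPL3 at 0.28, RPL4 at 0.19, RPL7A at 0.31 and RPSA at 0.28, all of them less far below 0 in the first pair.

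Hepatocyte genes were AFP at -0.89, AHSG at -1.64 and FGB at 0.91, and the lysozyme gene LYZ stood at -0.59. Among noncoding RNAs, UCA1 stood at -1.54, LINC00657 at -0.31, EPB41L4A-AS1 at 0.61, LRRC75A-AS1 at 0.28 and MIR3654 at 0.29. The remaining genes were CSTF2 (-0.40) and PAPOLA (-0.23) of 3′ end processing, PRKDC (-0.22) and DENND1C (1.26).

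Symbols outside the shared list also carried counts in the sgNeg2 libraries. In sgNeg2 replicate 1 they held 36899 counts on 31 cluster histone symbols, 4660 on 34 spliceosomal RNA symbols, 159 on 8 small structural symbols and 14848 on 228 nucleolar and Cajal body symbols. The IFN-treated library of the same guide and number held 113, 8, 2 and 57. HIST1H4B, an H4 gene, had 7071 and 6906 counts in the sgNeg2 libraries, and SCARNA2 had 5487 and 6188.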

How the results depend on the processing

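Requiring at least 2-fold beside the adjusted p left 1954 genes higher and 653 lower (5162 and 5557 without it), 19 giant protein genes and 319 long messengers higher, and 18 ribosomal protein genes and 64 short messengers lower. Leaving out genes under 5 CPM gave medians of 8.21 for cluster histones, 12.50 for small structural RNAs, 5.43 for nucleolar and Cajal body RNAs (18 higher), 0.94 for giant protein genes, -0.62 for ribosomal protein genes and 0.37 for long messengers, with 11 nuclear long noncoding RNAs higher. That setting tests fewer genes. Scaling on protein-coding genes moved the median of all genes to 0.06 and gave 0.90 for giant protein genes, -0.66 for ribosomal protein genes, -0.41 for short and 0.35 for long messengers. Long messengers had 0.28 without a filter and 0.28 in the joint fit. Limits of 700 and 8000 bases gave -0.34 for short (58 lower) and 0.49 for long messengers (772 higher), over fewer genes. With every symbol of the guide files, share ratios were 28.5-fold for cluster histones and 19.2-fold for nucleolar and Cajal body RNAs.

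With the replicate block the numbers do not pair the libraries, and medians were 7.79 for cluster histones, 11.05 for small structural RNAs and 1.62 for nucleolar and Cajal body RNAs, with 4957 genes higher and 5381 lower. Leaving out each library in turn gave 7.60 to 7.79 for cluster histones, 10.70 to 11.05 for small structural RNAs, -0.77 to -0.69 for ribosomal protein genes and 0.28 to 0.30 for long messengers. It gave 4485 to 5071 genes higher. Of genes without a call in the main fit, LINC01224 changed sign without genes under 5 CPM (0.026), PDGFRB ranged from -0.12 to 0.77 with 1 sgNeg2 library left out, and SYMPK from -0.068 to 0.0027. SYMPK was also 0.032 when scaled on protein-coding genes. Without genes under 5 CPM SYMPK was 0.081 and called higher (adjusted p = 0.0425, edgeR quasi-likelihood test). The causes were not tested. Of 157 named genes, RLE scaling and no filter lost no call. Only 123 of them were tested without genes under 5 CPM, and 155 with a DMSO library left out, so the others had no call to lose there. DESeq2 lost 1, the replicate block 3 (LINC00657, RPS27 and SNORD68), the joint fit 4 (H2AFX, INTS1, LINC00657 and SNORD68) and leaving out sgNeg2 replicate 2 also 4 (COL1A1, LINC00657, MIR3654 and SNORD68). Each other setting lost 0 to 3 calls. In DMSO libraries many noncoding RNAs rest on under 30 counts, so the size of their differences is limited by depth.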

Other observations

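Genes of liver secretion differed in both directions. AFP, the fetal serum protein, had 329 and 332 CPM with sgNeg2 and 807, 796 and 794 CPM with DMSO (log2 difference -1.27, edgeR quasi-likelihood adjusted p = 1.82e-27). FGB, a fibrinogen chain, had 68.3 and 63.7 CPM against 145, 145 and 149 CPM. TTR, the carrier of thyroxine, was higher with sgNeg2, at 53.9 and 54.8 CPM against 41.7, 42.4 and 40.0 CPM. HULC, a long noncoding RNA of liver cancer, had 6.78 and 6.32 CPM against 22.9, 22.9 and 23.0 CPM (log2 difference -1.81), while UCA1 had 4.45 and 5.17 CPM against 0.620, 0.695 and 0.387 CPM (log2 difference 3.09).

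Several genes with hardly any sgNeg2 counts were well above 5 CPM in DMSO libraries. THRIL, a long noncoding RNA, had 0.130 and 0.598 CPM against 21.7, 20.1 and 22.5 CPM, and OIT3, a liver protein, had 0.259 and 0.342 CPM against 11.5, 11.6 and 10.2 CPM. THRIL passed the low-count filter only through DMSO, which limits what its direction shows. In the IFN-treated sgNeg2 libraries THRIL stood at 13.3 and 15 CPM and OIT3 at 4.71 and 4.01 CPM.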
